A study of Mus musculus with 14 samples.

Results

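Bone marrow cells taken after CD45-targeted radioimmunotherapy (CD45 RIT) were compared with bone marrow cells taken after external total body irradiation (TBI). The comparison used 7 of the 14 libraries of the study, chosen by their treatment label: 2 of CD45 RIT (replicates 1 and 2) and 5 of TBI (replicates 1, 3, 4, 5 and 6). TBI replicate 2 was not analysed here. The TBI mice received 500 cGy from a caesium source. The CD45 RIT mice received 20 µCi on an antibody against CD45, and the title of the study names astatine-211 as the radionuclide. All mice carried Cdh5 Cre and a Rosa26 TdTomato reporter, and the irradiated mice were sampled 8 days after treatment. The other libraries were 4 of untreated mice, given for reference below, and 3 of IgG non-targeted radioimmunotherapy, which only add to the estimate of spread. The sorted cells were Lineage-, CD45- and TdTomato+, and the labels call them endothelial cells. The labels do not give the age or sex of the mice, whether the Cre is inducible, or whether each library came from 1 animal. The p-values therefore measure the spread between libraries within all groups, which may in part be technical. Only 2 of the 14 libraries were of CD45 RIT, so that spread comes mostly from the other groups.

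CD45, encoded by Ptprc, is a phosphatase on the surface of nearly all nucleated blood cells, and an antibody against it carries its radionuclide to those cells. Astatine-211 emits alpha particles, which deposit their energy over a few cell diameters, while external gamma irradiation reaches the whole body. Cdh5 encodes VE-cadherin of endothelial junctions. Its promoter is active in vessels and also in the embryonic endothelium that gives rise to blood, so a Cre under it can mark blood cells as well. Marrow stromal cells surround the vessels and supply blood-forming cells with factors such as CXCL12 and stem cell factor.

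Total counts were 23320156 and 26823379 in CD45 RIT replicates 1 and 2, and between 16412779 and 24941973 in the TBI libraries. Counts were found for 20994 genes in CD45 RIT replicate 1 and 17700 in replicate 2, against 22123 to 26752 in TBI. Of 6952 genes averaging at least 20 CPM (counts scaled to a common library size of 1000000) in TBI, CD45 RIT replicate 1 had 0 counts for 126 (1.81%) and replicate 2 for 704 (10.1%). In each TBI library at most 2 such genes, averaging that level in the other TBI libraries, were at 0. A ribosomal RNA gene model, CT010467.1, took 0.743% and 2.52% of the counts of CD45 RIT replicates 1 and 2, against 0.0398% to 0.118% in TBI. Across genes, Pearson's r of log2 CPM was 0.911 to 0.979 within TBI and 0.673 between the CD45 RIT libraries. It was 0.684 to 0.718 between CD45 RIT replicate 1 and TBI, and 0.539 to 0.563 between replicate 2 and TBI. TBI replicate 6 stood apart from the other TBI libraries in several gene groups, so its value is given beside the results it touches. No pair of libraries was close enough to be 1 library counted again. The part of these library differences in the results below was not tested.

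The RNA of several endothelial marker genes went against the label of the cells. Cdh5 was not counted in either CD45 RIT library, and had 3, 5, 0, 0 and 0 counts in TBI replicates 1, 3, 4, 5 and 6. Pecam1, a junction protein of endothelium that many blood cells also carry, had 6 and 4 counts in CD45 RIT replicates 1 and 2, against 14.4, 28.4, 19.5, 24.4 and 3.16 CPM in TBI. Of the 26 endothelial identity genes, 20 were tested, and 7 of these were at 0 in both CD45 RIT libraries. Flt1 and Cldn5 reached at most 2 counts in any of the 7 libraries, and Sox7 and Sox17 were at 0 in all of them. Other members were counted, and of the 20 tested 5 were called higher and 5 lower. Ramp2 had 1050 and 562 counts in CD45 RIT replicates 1 and 2, Kdr 1 and 2390, and Robo4 0 and 130. The summed level of the list was 144 and 283 CPM in CD45 RIT replicates 1 and 2, 78.5 to 206 CPM in TBI and 528 to 592 CPM in 4 untreated libraries. Ptprc, the gene of the antibody's target, was at 0.0610 CPM (1 count) and 31.9 CPM in CD45 RIT replicates 1 and 2, against 35.1, 34.2, 32.6, 48.3 and 5.10 CPM in TBI. The Ptprc difference did not pass the test (adjusted p = 0.54), and the 2 CD45 RIT libraries lay on either side of TBI replicate 6. Its log2 fold change was -8.98 without CD45 RIT replicate 2 and 0.02 without replicate 1. The libraries are therefore described below by the genes they hold and not as endothelium.

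Differences between the treatments were large and spread over much of the transcriptome. Of 21509 genes tested with edgeR's quasi-likelihood test and Benjamini-Hochberg adjustment, 8308 (38.6%) had an adjusted p under 0.05 and are referred to as called. Of all genes tested, 19.6% were called higher after CD45 RIT and 19.0% were called lower. The fitted log2 fold change exceeded 4 in size for 1940 genes called higher and 1909 called lower, but for genes near 0 counts in 1 group a fitted value is no bound. Both CD45 RIT libraries lay above all 5 TBI libraries for 18.2% of the genes tested and below all 5 for 27.6%. The median log2 fold change over all genes tested was -0.39, and was -0.96 without scaling factors, where 33.6% of the called genes were higher against 50.9% with them. The balance of higher and lower calls therefore depends on the scaling.

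The 2 CD45 RIT libraries were not interchangeable, and each is given separately throughout. Replicate 1 lay above all TBI libraries for 33.1% of genes and below all for 36.4%, and replicate 2 for 29.0% and 46.6%. They differed from each other by more than 8-fold for 5779 genes (26.9%). The calls rest on a spread that comes mostly from the other groups and may understate this difference. With CD45 RIT replicate 1 or 2 left out, the log2 fold change of 290 and 351 of the called genes changed sign. Its median over all genes was then -1.51 and -0.60. A fit with 1 CD45 RIT library holds no spread within that group, so its p-values rest on the spread of the other groups. Calls made or lost in such fits are therefore given below as a description only. Among genes called higher, 377 were more than 8 times higher in replicate 1 than in replicate 2, and 448 more than 8 times higher in replicate 2. Among genes called lower, 1774 (43.4%) had at most 3 counts in both CD45 RIT libraries. For such genes only a lower bound of the fold change is given, as the mean of TBI over a floor of 3 counts in CD45 RIT. Bounds for genes with at most 3 counts in all TBI libraries use the mean of both CD45 RIT libraries. They do not bound each library.

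**Figure D1:**
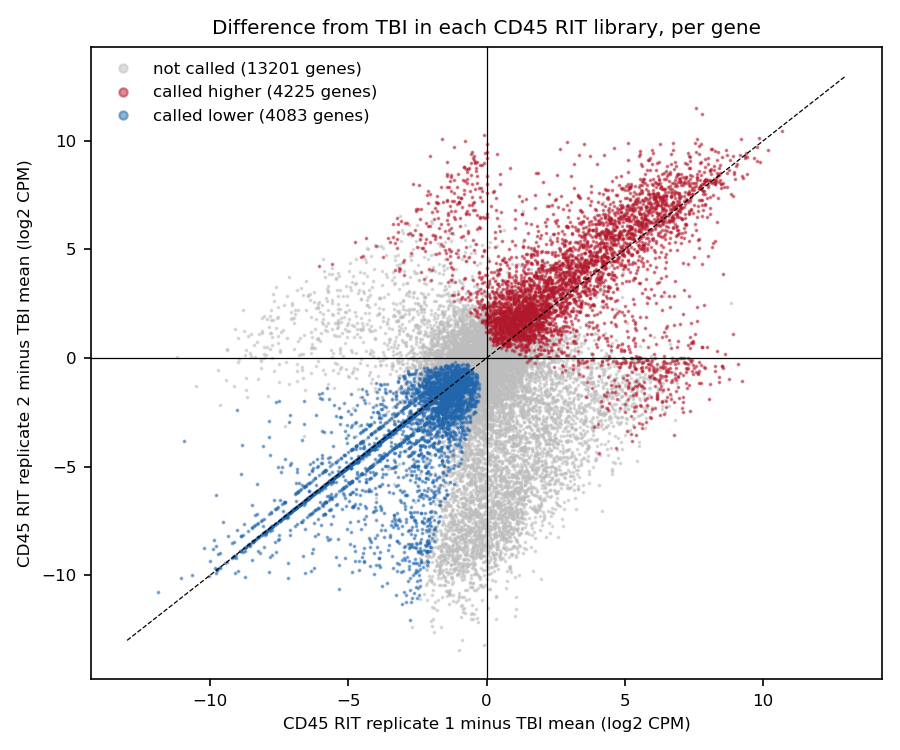
Each point is 1 of the 21509 genes tested, placed by the difference in log2 CPM between CD45 RIT replicate 1 (horizontal axis) or replicate 2 (vertical axis) and the mean of the 5 TBI libraries, with the line of equality dashed. Called genes follow the diagonal for the most part, with 2 side branches of genes that are high in 1 CD45 RIT library alone, and many genes that are low in replicate 2 alone were not called.

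The 12 genes with the widest gap upward between the groups included a chemokine, a lipase, receptors and secreted antagonists. Gas6 (GRCm38 chromosome 8, 13465374 to 13494490), a ligand that bridges dying cells to receptors on the cells that engulf them, was at 6749 and 7034 CPM in CD45 RIT replicates 1 and 2. In TBI replicates 1, 3, 4, 5 and 6 it was at 23.01, 11.3, 13.8, 1.42 and 19.7 CPM, and in untreated libraries at 92.0 to 268 CPM. The lower CD45 RIT library thus exceeded the highest TBI and untreated library (log2 fold change 8.96, SE 0.82, adjusted p = 7.11e-06). Lpl (chromosome 8, 68880491 to 68907448), which frees fatty acids from lipoproteins, was at 8995 and 6433 CPM in CD45 RIT replicates 1 and 2, against 22.9, 12.8, 24.3, 13.7 and 19.0 CPM in TBI. The groups did not overlap (log2 fold change 8.70, SE 0.50, adjusted p = 5.04e-07). Cxcl12 (chromosome 6, 117168535 to 117181367), the chemokine that holds stem cells in the marrow, was at 24860 and 26860 CPM after CD45 RIT. After TBI it was at 145, 53.9, 89.5, 39.7 and 234 CPM, and in untreated libraries at 694 to 1639 CPM. TBI was the lowest of the 3 groups for Cxcl12, and the CD45 RIT libraries were the highest (log2 fold change 7.85, SE 0.67, adjusted p = 4.04e-06).

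Receptors and secreted inhibitors showed the same separation. Fgfr2, a fibroblast growth factor receptor, was at 912 and 924 CPM in CD45 RIT replicates 1 and 2 and at 1.31 to 5.60 CPM in TBI. Ghr, the growth hormone receptor, was at 832 and 831 CPM against 1.42 to 5.53 CPM, with almost equal levels in both CD45 RIT libraries. Fst and Chrdl1 encode secreted antagonists of activins and of BMPs. Fst was at 513 and 769 CPM against 0.508 to 3.86 CPM, and Chrdl1 at 1498 and 824 CPM against 0.746 to 6.61 CPM. Ltbp2, Fstl1, Prelp, Spry1, an inhibitor of receptor tyrosine kinase signalling, and Tle2, a corepressor, completed the set. Their log2 fold changes ranged from 7.54 (Fstl1, SE 0.55) to 8.25 (Prelp, SE 0.61). For none of these 12 genes did an untreated library reach either CD45 RIT library.

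**Figure D2:**
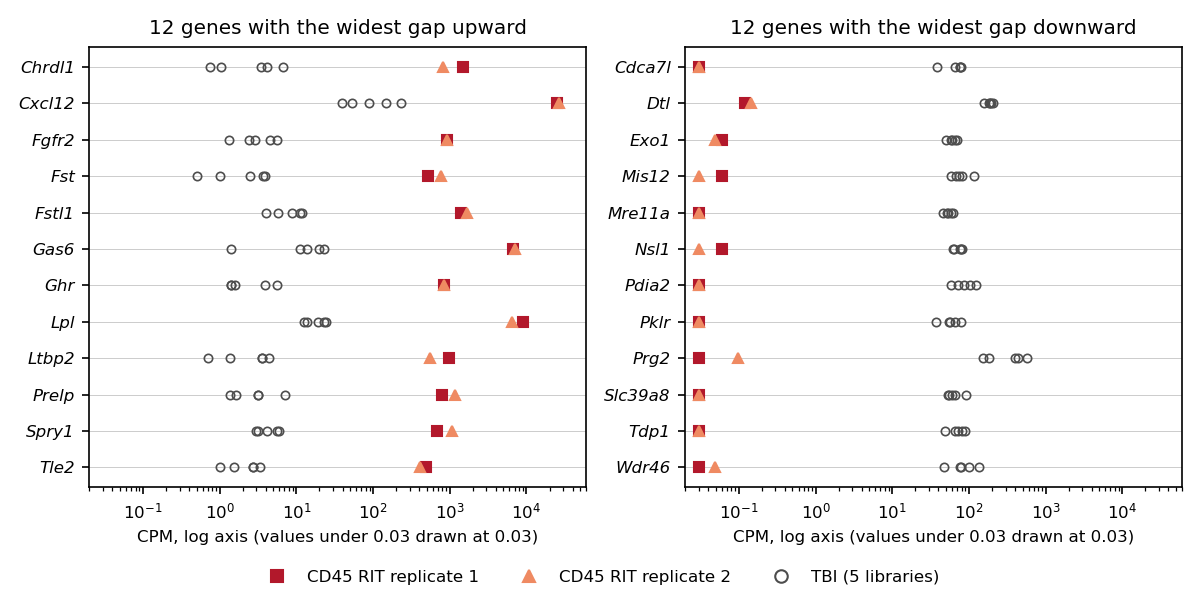
CPM on a log axis in CD45 RIT replicate 1 (squares), CD45 RIT replicate 2 (triangles) and 5 TBI libraries (open circles) for the 12 called genes with the widest gap in each direction. Both CD45 RIT libraries lie close together in most genes of the left panel, for example 832 and 831 CPM for Ghr, and at 0 to 3 counts in the right panel.

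Genes that mark marrow stromal cells were higher in both CD45 RIT libraries almost without exception. Of 24 stromal genes tested, 23 were called higher and none lower, with a median log2 fold change of 6.31 against -0.39 over all genes, and 22 lay above all TBI libraries in both CD45 RIT libraries. Their summed level was 20550 and 48510 CPM in CD45 RIT replicates 1 and 2, 1110 to 2577 CPM in TBI and 3023 to 8746 CPM in untreated libraries. Esm1, a secreted proteoglycan found in endothelium and in marrow stroma, was at 1213 and 2029 CPM against 7.29, 3.94, 6.92, 2.92 and 14.4 CPM in TBI (log2 fold change 7.84, SE 0.58, adjusted p = 1.56e-06). Cxcl14, a chemokine, was at 1577 and 2032 CPM against 5.88, 4.18, 5.39, 1.32 and 30.0 CPM. TBI replicate 6 was the highest of the TBI libraries for both. Lepr, the leptin receptor that marks perivascular stroma, was at 1655 and 1829 CPM against 8.64 to 42.4 CPM (log2 fold change 6.70, SE 0.53, adjusted p = 2.54e-06). Twist2, a mesenchymal transcription factor, had 184 counts in replicate 1 and 0 in replicate 2, so that its call rests on replicate 1 (log2 fold change -2.05 and adjusted p = 0.646 without it). In sorted bulk samples such as these, fewer cells of one type and less RNA per cell cannot be told apart, and a rise of stromal genes does not say which of the 2 changed.

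Bone-forming and lipid genes rose with them. All 18 osteolineage genes tested were called higher, and all 18 were above every TBI library in both CD45 RIT libraries. Spp1, which encodes the matrix protein osteopontin, was at 12920 and 31190 CPM against 120, 128, 203, 124 and 598 CPM in TBI (log2 fold change 6.55, SE 0.64, adjusted p = 1.12e-05). Dlx5, a transcription factor of osteoblasts, was at 60.1 and 228 CPM against 0.339 to 1.36 CPM, and Mepe, a protein of osteocytes, at 226 and 521 CPM against 0 to 8.83 CPM. The osteolineage count fell to 10 of 18 with a term for library number, which is described further on. With that term 10.3% of all genes tested were called higher and 10.8% lower, against 19.6% and 19.0% without it. Of 27 adipocyte and lipid handling genes tested, 20 were called higher and none lower (median log2 fold change 5.00). Fabp4, a carrier of fatty acids, was at 701 and 799.6 CPM against 3.82, 1.00, 0.525, 0.576 and 1.51 CPM (log2 fold change 8.97, SE 0.91, adjusted p = 1.46e-05). Adipoq, which encodes adiponectin and is also made by stromal progenitors, was at 4304 and 3053 CPM against 8.95 to 49.9 CPM. Gpihbp1, which anchors lipoprotein lipase to capillaries, had at most 1 count in a TBI library. It had 83 and 995 counts (5.06 and 47.9 CPM) in CD45 RIT replicates 1 and 2, whose mean was at least 123-fold higher. With the library number term 12 lipid genes were called.

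**Figure D3:**
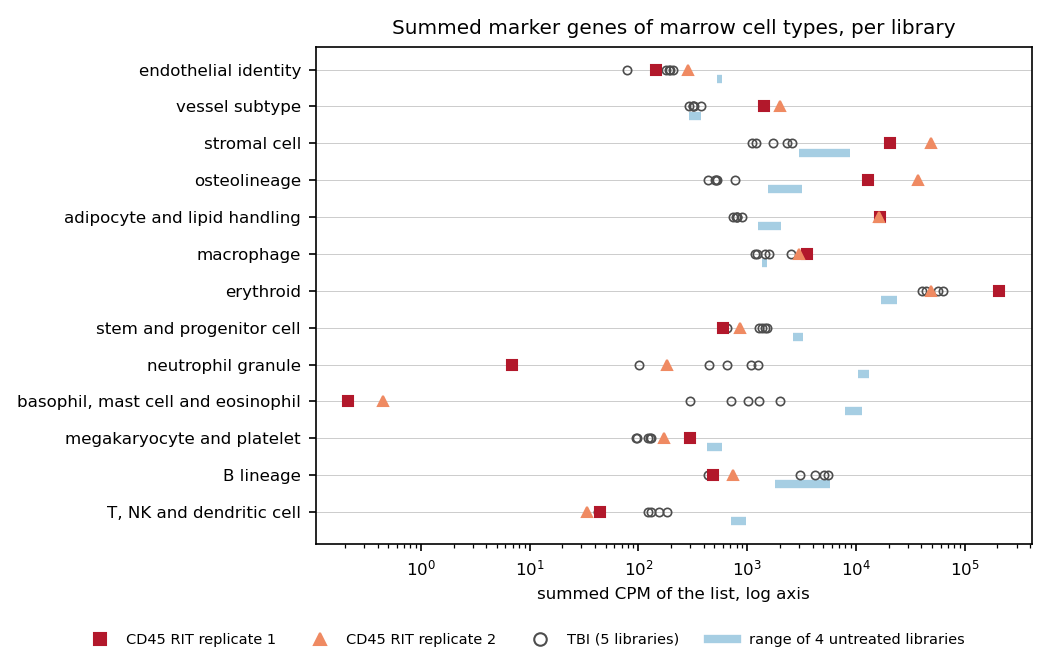
Summed CPM of 13 lists of marker genes on a log axis, per library, with squares and triangles for CD45 RIT replicates 1 and 2, open circles for the 5 TBI libraries and bars for the range of 4 untreated libraries. Stromal, osteolineage and lipid genes lie above every TBI and untreated library in both CD45 RIT libraries, the erythroid sum of replicate 1 (207200 CPM) lies beside that of TBI replicate 6 (208700 CPM), and basophil, mast cell and eosinophil genes are near 0 in both.

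Ligands by which the niche acts on blood cells followed the stromal genes. Of 30 niche factor genes tested, 23 were called higher and 1 lower, with a median log2 fold change of 6.57. Kitl (chromosome 10, 100015630 to 100100416), which encodes stem cell factor, was at 247 and 308 CPM in CD45 RIT replicates 1 and 2 and at 2.65, 0.865, 1.57, 0.712 and 4.67 CPM in TBI, with no overlap (log2 fold change 7.07, SE 0.75, adjusted p = 1.91e-05). Il7, the cytokine that early lymphocytes require, was at 285 and 207 CPM against 0.672, 0.830, 1.81, 0.0678 and 1.29 CPM (log2 fold change 8.06, SE 0.98, adjusted p = 5.73e-05). Csf1, the growth factor of macrophages, was at 961 and 824 CPM against 8.67, 10.5, 9.97, 7.56 and 5.82 CPM (log2 fold change 6.71, SE 0.45, adjusted p = 9.85e-07). Bmp4, a morphogen, was at 864 and 755 CPM against 0.305 to 1.96 CPM. Igf2 had 38 and 17 counts and was at 0 in all TBI libraries (at least 7.30-fold higher in the CD45 RIT mean). Igfbp2, which binds insulin-like growth factors, had 48 and 695 counts in CD45 RIT replicates 1 and 2. Its mean there was at least 84.4-fold higher. Il6 was the 1 member called lower, with 0 counts in both CD45 RIT libraries against 0.708, 2.63, 1.24, 0.339 and 0.431 CPM (at least 5.80-fold lower). With the library number term 13 niche factors were called higher.

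Matrix genes were higher in nearly every case. Of 57 extracellular matrix genes tested, 55 (96.5%) were called higher against 19.6% of all genes, and 52 were above all TBI libraries in both CD45 RIT libraries. With CD45 RIT replicate 1 or 2 left out, the median log2 fold change was 6.59 and 4.82. The library number term gave 40 called higher, against 10.3% of all genes. Col1a1, a chain of the main collagen of bone, was at 5436 and 12980 CPM against 689.5, 497, 274, 614 and 351 CPM in TBI and 631 to 2072 CPM in untreated libraries (log2 fold change 4.25, SE 0.82, adjusted p = 0.00166). The 3 members with the largest log2 fold changes were Fmod, Efemp1 and Col16a1. Fmod, which encodes the collagen-binding fibromodulin, differed between the CD45 RIT libraries (63.5 and 697 CPM against 0 to 0.814 CPM). Efemp1, a fibulin, was at 281 and 187 CPM against 0 to 1.49 CPM. Col16a1 was at 65.5 and 340.4 CPM against 0 to 1.44 CPM. Of 36 genes of TGF-beta and BMP signalling, 30 were called higher and none lower (median 4.60), or 19 with the library number term. Bmp2 was at 140.3 and 127 CPM against 0.319, 0, 0, 0.203 and 1.58 CPM, highest among TBI libraries in replicate 6.

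Secreted signals to immune cells were more often higher than lower. Of 35 chemokine, cytokine and adhesion genes tested, 19 (54.3%) were called higher and 3 (8.57%) lower, against 19.6% and 19.0% of all genes. With the library number term 10 were called higher and 1 lower, against 10.3% and 10.8% of all genes. Cxcl5 and Cxcl1, which attract neutrophils, had 257 and 1809 counts and 150 and 1392 counts in CD45 RIT replicates 1 and 2, with at most 1 count in a TBI library. The means of the 2 CD45 RIT libraries were at least 238-fold and 177-fold higher. Replicate 1 was the lower, with 15.7 and 87.0 CPM for Cxcl5 and 9.15 and 67.0 CPM for Cxcl1 in replicates 1 and 2. Ccl2, which attracts monocytes, was at 4.70 CPM in replicate 1 and 225 CPM in replicate 2 against 0.354, 0.277, 0.191, 0.0339 and 1.15 CPM. Both were above TBI, but without replicate 2 the call was lost (adjusted p = 0.0916). Vcam1, an adhesion molecule of stroma and endothelium, was at 3520 and 2849 CPM against 19.1, 5.15, 7.83, 4.47 and 33.0 CPM (log2 fold change 7.84, SE 0.75, adjusted p = 9.59e-06). Ccl4, a chemokine made by many leukocytes, was at 0 counts in both CD45 RIT libraries and at 1.15 to 6.88 CPM in TBI (at least 16.3-fold lower).

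Macrophage genes and genes for the clearance of dying cells rose in part. Of 25 macrophage genes tested, 16 (64%) were called higher and 2 (8%) lower, against 19.6% and 19.0% of all genes. In both CD45 RIT libraries 10 of them were above all TBI libraries. The members of this list did not move together. Adgre1, which encodes the macrophage antigen F4/80, had 0 counts in both CD45 RIT libraries (adjusted p = 0.0821, or 0.0286 for a fall with DESeq2), and Cd163, a haemoglobin scavenger receptor, had 0 and 1 counts (at least 16.9-fold lower). Cd14, a co-receptor for bacterial lipopolysaccharide, was at 16.5 and 39.4 CPM against 0 to 0.508 CPM. Timd4, a receptor for phosphatidylserine on dying cells, had 940 counts in replicate 2 and 0 in replicate 1 (log2 fold change -2.86 and adjusted p = 0.65 without replicate 2). Of 26 genes of dying-cell clearance, 19 (73.1%) were called higher and 1 (3.85%) was called lower. The latter was Xkr8, a scramblase (0 counts in both, at least 7.00-fold). The Xkr8 call was lost without CD45 RIT replicate 1 or 2 (adjusted p = 0.0626 and 0.0876). Mfge8, a bridging ligand like Gas6, was at 462 and 759.9 CPM against 14.2, 15.7, 10.8, 13.6 and 10.9 CPM (log2 fold change 5.55, SE 0.31, adjusted p = 3.94e-07). With the library number term 7 macrophage and 11 clearance genes were called higher, against 10.3% of all genes. Complement showed 14 (66.7%) of 21 genes higher and 1 (4.76%) lower (median 5.00), or 8 and 0 with that term. Serping1, the inhibitor of the first component, was at 2500 and 3459 CPM against 29.0, 15.6, 24.5, 10.2 and 61.3 CPM (log2 fold change 6.73, SE 0.58, adjusted p = 4.16e-06), while C3ar1, a complement receptor of leukocytes, was at 0 counts in both. C6 was at 196 and 71.0 CPM against 0 to 2.30 CPM, and Cfb at 16.2 and 14 CPM against 0.0339 to 0.431 CPM.

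Vessel genes gave no uniform direction. Of 20 endothelial identity genes tested, 5 (25%) were called higher and 5 (25%) lower, near the 19.6% and 19.0% of all genes. Ramp2, a co-receptor for adrenomedullin, was at 64.0 and 27.0 CPM against 0.271 to 0.779 CPM, above TBI in both libraries (log2 fold change 6.54, SE 1.26, adjusted p = 0.0016). Kdr, the main receptor for VEGF, had 1 count in replicate 1 and 2390 in replicate 2, and Robo4 had 0 and 130. Both lost their call and turned negative without replicate 2 (Kdr log2 fold change -3.51, adjusted p = 0.419, and Robo4 -2.86, adjusted p = 0.648). The Kdr call was also lost without TBI replicate 1 or 3 (adjusted p = 0.0541 and 0.0525), and the Robo4 call without TBI replicate 1, 3, 4 or 6 (0.055 to 0.0623). The number called higher was 2 without replicate 2 and also 2 with the library number term. Icam2, an adhesion molecule of endothelium and platelets, was at 0 counts in both CD45 RIT libraries and at 37.0, 22.1, 25.9, 26.4 and 6.39 CPM in TBI (at least 129-fold lower). Of 21 vessel subtype genes, 10 (47.6%) were called higher and 1 (4.76%) lower. With the library number term 2 were called higher and 1 lower, against 10.3% and 10.8% of all genes. Nrp1, a co-receptor for VEGF and semaphorins, was at 509 and 651 CPM against 3.01, 1.59, 1.76, 3.29 and 5.17 CPM (log2 fold change 7.62, SE 0.44, adjusted p = 5.04e-07). Bmp6 was at 226 and 401 CPM against 1.59 to 6.68 CPM. Flt4, the receptor of lymphatic and sinusoidal vessels, had 0 and 1306 counts, so its call rests on replicate 2 alone (log2 fold change -3.84 and adjusted p = 0.36 without it). Podxl, a sialomucin, had 6 and 0 counts against 63.1, 34.6, 60.7, 53.6 and 24.2 CPM in TBI, while all untreated libraries were at 0.

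Granulocyte genes were lower in most cases, many of them down to the floor. None of 14 basophil, mast cell and eosinophil genes tested exceeded 3 counts in either CD45 RIT library, and 12 were called lower. Their summed level was 0.214 and 0.447 CPM in CD45 RIT replicates 1 and 2, against 298 to 2007 CPM in TBI and 7990 to 11280 CPM in untreated libraries. Prg2 (chromosome 2, 84980461 to 84983632), the major basic protein of eosinophil granules, had 0 and 2 counts against 155, 564, 399, 438 and 182 CPM in TBI. Taken against the floor it was 1899.7-fold lower (adjusted p = 0.0038), a value that does not cover the counting error of the 2 counts. Hdc, which makes histamine, was at least 84.8-fold lower and Prg3 at least 105-fold lower. Of 21 neutrophil granule genes, 13 were called lower and none higher, or 8 lower without CD45 RIT replicate 2 and 7 with the library number term. Mpo, myeloperoxidase, had 1 and 4 counts against 251, 766, 725, 372 and 49.1 CPM in TBI and 7061 to 8271 CPM in untreated libraries. Elane, neutrophil elastase, was at least 364-fold lower and Ctsg, cathepsin G, at least 213-fold lower. For these 3 genes TBI replicate 6 was the lowest of its group.

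Most B lineage genes fell as well. Of 25 B lineage genes tested, 17 were called lower and none higher (median log2 fold change -3.65, or -3.31 with floor-level genes at their bound). Pou2af1, a coactivator of B cells, had 0 counts in both CD45 RIT libraries against 106, 108, 88.8, 124 and 12.3 CPM in TBI (at least 479.7-fold lower). Rag2, which recombines antigen receptor genes, was at 0 counts in both against 35.5, 58.2, 36.7, 64.7 and 5.53 CPM, and Pax5, the factor that commits cells to the B lineage, at 0 in both against 18.0, 20.2, 13.8, 18.5 and 3.52 CPM. Each of these was much lower in TBI replicate 6 than in the other 4 TBI libraries, and the summed list in that library, 440 CPM, lay below both CD45 RIT libraries (482 and 744 CPM). With the library number term 6 B lineage genes were called lower. Of 21 T cell, NK cell and dendritic cell genes, 5 (23.8%) were called lower, a share near the 19.0% of all genes. One of them, Nkg7, a protein of cytotoxic granules, had 0 and 1 counts (at least 113-fold lower), and 1 call was made without CD45 RIT replicate 2.

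Stem and progenitor genes went both ways. Of 26 tested, 11 (42.3%) were called lower and 7 (26.9%) higher, against 19.0% and 19.6% of all genes. With the library number term 3 were called lower and 4 higher, against 10.8% and 10.3% of all genes. Gata2 (chromosome 6, 88193891 to 88207032), a transcription factor of stem cells and mast cells, was at 0 counts in both CD45 RIT libraries and at 70.8, 48.2, 44.4, 40.4 and 13.4 CPM in TBI (at least 238-fold lower). Cd34, carried by progenitors and endothelium, was at 0 counts in both, at 2.23 to 9.73 CPM in TBI and at 200.2 to 296 CPM in untreated libraries (at least 35.3-fold lower). Cd27 was at least 12.4-fold lower. Hlf, a transcription factor of stem cells, had 331 counts in replicate 1 and 1 in replicate 2, and its rise was lost without replicate 1 (log2 fold change -2.13, adjusted p = 0.431). Of 17 megakaryocyte and platelet genes, 4 (23.5%) were called higher and 3 (17.6%) lower, near the 19.6% and 19.0% of all genes. Itgb3, the beta chain of the platelet fibrinogen receptor that stromal cells also make, was at 36.9 and 85.3 CPM against 1.11 to 4.45 CPM (log2 fold change 4.77, SE 0.61, adjusted p = 7.49e-05). Plek, the platelet kinase substrate pleckstrin, was at 42.0 and 84.5 CPM against 6.54 to 13.0 CPM. Ppbp, a platelet chemokine, was at 44.7 and 24.0 CPM against 1.17, 1.45, 2.81, 0.915 and 14 CPM, highest of TBI in replicate 6. Its call was lost without CD45 RIT replicate 1 (adjusted p = 0.0846) or without TBI replicate 1, 3, 4 or 5 (0.0541 to 0.0586). Gp1ba, the platelet receptor for von Willebrand factor, was at 0 counts in both (at least 13.4-fold lower).

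Erythroid genes separated the 2 CD45 RIT libraries from each other more than from TBI. Their summed level was 207200 CPM in CD45 RIT replicate 1, 49380 CPM in replicate 2 and 43840, 56780, 40380, 63460 and 208700 CPM in TBI replicates 1, 3, 4, 5 and 6. In this sum, which is weighted to the most abundant genes, replicate 1 lay next to TBI replicate 6 and replicate 2 among the other 4. Gene by gene, replicate 2 lay below every TBI library for 21 of the 28 genes tested and above for none. Replicate 1 lay below for 6 and above for 8. None of the 28 was called higher and 2 (7.14%) were called lower, against 19.6% and 19.0% of all genes. The median log2 fold change was -0.74, and -5.16 without CD45 RIT replicate 1. Without TBI replicate 6, 6 were called higher, against 19.1% of all genes in that fit. Hbb-bs, the adult beta globin, was at 118900 and 23140 CPM against 7778, 11150, 6673, 12750 and 78720 CPM (adjusted p = 0.141). It was called higher without TBI replicate 6 (log2 fold change 2.89, adjusted p = 0.000857), and its difference was -0.02 on the log2 scale without CD45 RIT replicate 1. Tal1, a master factor of the lineage, was at 43.1 and 31.9 CPM against 73.5, 77.3, 73.8, 79.9 and 192 CPM, below all TBI libraries in both (log2 fold change -1.41, SE 0.39, adjusted p = 0.0135, or 0.0763 without CD45 RIT replicate 2). Car1, the carbonic anhydrase of red cells, had 1129 counts in replicate 1 and 3 in replicate 2 against 488 to 668 CPM.

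Interferon-stimulated genes were higher in a majority of cases. The promoters of such genes often hold the interferon-stimulated response element, for which the letters GAAA, any 2 bases and GAAA were searched on both strands in RefSeq promoters (GRCm38.p6, 250 bases before to 50 after each start). The 3 sequences below are shown because 2 of them hold the element and 1, for a gene that changed as much, does not. They cover the 200 bases before the start site of the named gene, with the element in capitals.
Ifit3: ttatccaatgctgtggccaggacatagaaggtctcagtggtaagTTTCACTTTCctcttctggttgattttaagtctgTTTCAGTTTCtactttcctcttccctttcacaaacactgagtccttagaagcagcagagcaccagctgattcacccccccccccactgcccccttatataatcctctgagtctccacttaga
Ifit1: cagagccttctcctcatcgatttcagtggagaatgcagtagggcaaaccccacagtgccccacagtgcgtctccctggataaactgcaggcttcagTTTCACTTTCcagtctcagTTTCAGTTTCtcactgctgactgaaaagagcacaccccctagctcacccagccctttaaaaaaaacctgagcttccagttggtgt
Oasl2: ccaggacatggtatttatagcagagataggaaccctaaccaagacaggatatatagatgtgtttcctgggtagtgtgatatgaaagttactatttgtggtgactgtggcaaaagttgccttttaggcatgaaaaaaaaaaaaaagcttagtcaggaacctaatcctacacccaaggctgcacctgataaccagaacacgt
They lie at chr19:34583329-34583528 (plus strand), chr19:34640689-34640888 (plus strand) and chr5:114896734-114896933 (plus strand). In Ifit3 the element begins 156 and 122 bases before the start, and in Ifit1 104 and 85 bases before it, each time on the other strand.

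Ifit3 and Ifit1 encode proteins that bind foreign RNA, and Oasl2 a relative of the enzymes that sense double-stranded RNA. Ifit3 was at 87.4 and 111 CPM in CD45 RIT replicates 1 and 2, against 0.920, 0.899, 1.05, 0.881 and 0.790 CPM in TBI and 0 to 4.31 CPM in untreated libraries (log2 fold change 6.76, SE 1.33, adjusted p = 0.00186). Ifit1 was at 239.9 and 54.5 CPM against 2.27, 1.73, 6.68, 4.85 and 11.4 CPM (log2 fold change 4.78, SE 0.76, adjusted p = 0.000405). Oasl2 was at 159 and 214 CPM against 2.55, 4.84, 5.34, 3.66 and 7.11 CPM (log2 fold change 5.31, SE 0.51, adjusted p = 9.24e-06). None of the 3 overlapped with TBI. Over the whole list of 51 genes, 28 (54.9%) were called higher and 2 (3.92%) lower, against 19.6% and 19.0% of all genes. The median log2 fold change was 1.97, and 28 were above all TBI libraries in both CD45 RIT libraries. The median was 1.35 without CD45 RIT replicate 1, and 14 of the 51 genes lay below all TBI libraries in CD45 RIT replicate 2. With the library number term 18 were called higher and none lower, against 10.3% and 10.8% of all genes. Isg15, a ubiquitin-like protein, was at 519.8 and 219 CPM against 23.2, 50.3, 27.5, 64.2 and 149 CPM. Oas2 was called lower, with 0 counts in both CD45 RIT libraries and 0.239 to 1.36 CPM in TBI (at least 3.00-fold), a call lost without either CD45 RIT library (adjusted p = 0.05 and 0.0773). The element was found in 23 of the 44 promoters of the list (52.3%) and in 3.44% of all 32851 promoters. Among promoters of members called higher it was in 14 of 23, and among those not called in 9 of 20.

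Antigen presentation genes rose more moderately. Of 26 tested, 15 (57.7%) were called higher and 1 (3.85%) lower, against 19.6% and 19.0% of all genes (median log2 fold change 1.62). H2-T22 and H2-Q7 belong to a family of near-identical class I genes, and how the authors' counting shared reads among them is not given, so their values are uncertain. H2-T22 was at 143 and 193 CPM against 12.1, 11.5, 19.4, 18.4 and 12.5 CPM (log2 fold change 3.51, SE 0.31, adjusted p = 4.18e-06). H2-Q7 was at 112 and 194 CPM against 11.8, 14.7, 13.7, 19.6 and 10.6 CPM in TBI and 75.0 to 127 CPM in untreated libraries. Nlrc5, the transactivator of class I genes, was at 94.8 and 58.8 CPM against 7.93, 12.3, 9.35, 11.1 and 2.94 CPM (log2 fold change 3.14, SE 0.52, adjusted p = 0.000576). B2m, the light chain of class I molecules, was at 1928 and 2870 CPM against 473, 614, 534, 749 and 436 CPM (log2 fold change 2.10, SE 0.21, adjusted p = 1.38e-05). The class II gene H2-Aa was called lower, with 0 and 1 counts against 0.933 to 3.08 CPM. Its call was lost when either CD45 RIT library was left out (adjusted p = 0.0793 and 0.0581).

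Targets of p53, the transcription factor that answers DNA damage, were more often higher than lower. Of 32 tested, 16 (50%) were called higher and 4 (12.5%) lower, against 19.6% and 19.0% of all genes. Their median log2 fold change was 1.30. Cdkn1a (chromosome 17, 29090976 to 29100727), the p21 inhibitor of the cell cycle, was at 551 and 935 CPM in CD45 RIT replicates 1 and 2, against 43.0, 41.8, 26.7, 51.2 and 115 CPM in TBI and 26.1 to 39.6 CPM in untreated libraries. Both CD45 RIT libraries exceeded TBI replicate 6, the highest of its group (log2 fold change 3.74, SE 0.42, adjusted p = 3.27e-05). Mdm2, which degrades p53, was at 142 and 179 CPM against 58.2, 70.9, 68.7, 70.5 and 77.8 CPM (log2 fold change 1.22, SE 0.20, adjusted p = 0.000589). Phlda3, an inhibitor of AKT, was at 303 and 388 CPM against 6.34, 8.51, 5.87, 5.05 and 5.46 CPM (log2 fold change 5.79, SE 0.39, adjusted p = 9.73e-07). Ccng1 was at 229 and 253 CPM against 78.3, 78.3, 91.1, 80.3 and 56.1 CPM (log2 fold change 1.65, SE 0.21, adjusted p = 8.23e-05). Fas, a death receptor, was at 44.5 and 75.1 CPM against 0.359 to 1.53 CPM, and Plk2 at 18.2 and 217 CPM against 0 to 3.91 CPM. Plk3 was called lower, with 0 counts in both libraries (at least 15.3-fold). The level of Trp53 itself was 120.4 and 162 CPM against 259.8, 204, 281, 214 and 132 CPM, overlapping in TBI replicate 6 (adjusted p = 0.0746). It was called lower without TBI replicate 6 (adjusted p = 0.0101), and its log2 fold change was -0.98 without CD45 RIT replicate 2. The median log2 fold change of the targets was 0.93 without CD45 RIT replicate 2.

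Survival and arrest genes moved in part. Of 16 BCL2 family genes tested, 5 (31.2%) were called higher and 1 (6.25%) lower, against 19.6% and 19.0% of all genes. Their median log2 fold change of 1.28 was -0.27 without CD45 RIT replicate 2. Bax, an executor of cell death, was at 153 and 342 CPM against 78.2, 70.2, 70.6, 62.3 and 73.3 CPM, with no overlap (log2 fold change 1.80, SE 0.24, adjusted p = 0.000106). Bcl2l11, which encodes the death activator BIM, was at 20.9 and 111 CPM against 7.96, 14.9, 10.2, 13.1 and 10.2 CPM. Bcl2 itself was at 3.90 CPM in replicate 1, within the TBI range of 0.646 to 5.81 CPM, and at 56.5 CPM in replicate 2. Without replicate 2 neither Bcl2l11 (adjusted p = 0.368) nor Bcl2 (adjusted p = 0.866) was called, and leaving out any 1 TBI library also ended the Bcl2 call (0.0645 to 0.0735). Pmaip1, another death activator and p53 target, had 1 count in each CD45 RIT library (at least 14.9-fold lower). Of 24 genes of arrest and senescence, 10 (41.7%) were called higher and 3 (12.5%) lower, against the same shares of all genes. Their median log2 fold change of 0.08 was -0.13 without CD45 RIT replicate 2. Cdkn1c, the p57 inhibitor, was at 175 and 214 CPM against 0.415 to 1.72 CPM (log2 fold change 7.43, SE 1.06, adjusted p = 0.000188). Igfbp3 was at 139 and 406 CPM against 1.31, 0.899, 0.906, 0.305 and 12.1 CPM. Ccnd3, a cyclin of the G1 phase, was lower at 373 and 83.3 CPM against 895, 1311, 1188, 1200 and 1671 CPM (log2 fold change -2.46, SE 0.47, adjusted p = 0.00156).

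Genes of DNA replication were lower in both CD45 RIT libraries without exception. All 51 genes tested lay below every TBI library in replicate 1 and in replicate 2, against 27.6% of all genes in both, and 38 were called lower (74.5% against 19.0%). With CD45 RIT replicate 1 or 2 left out, the median log2 fold change was -4.43 and -2.15, against -2.67 with both. Their summed level was 3507 and 1164 CPM in CD45 RIT replicates 1 and 2, 16730 to 19520 CPM in TBI and 12230 to 14440 CPM in untreated libraries. The 2 libraries differed in how the genes were lower. In replicate 1, 50 of 51 had more than 3 counts, with a median difference from TBI of -1.98 on the log2 scale. In replicate 2, 18 of 51 had at most 3 counts and the other 33 had a median difference of -2.79. Mcm5, a subunit of the replicative helicase, was at 112 CPM in replicate 1 and 0.0962 CPM (2 counts) in replicate 2, against 786, 735, 804, 702 and 748 CPM in TBI. With the libraries so far apart its adjusted p was 0.0446, and 0.0578 to 0.0661 when any 1 TBI library was left out. Pole2, a subunit of DNA polymerase epsilon, was at 0 counts in both against 36.5, 44.4, 36.8, 34.7 and 41.5 CPM (at least 212-fold lower, adjusted p = 3.08e-07). Prim2, a subunit of primase, was at 0.427 and 0.0481 CPM against 93.5, 126, 131, 127 and 126 CPM (log2 fold change -9.03, SE 0.68, adjusted p = 1.82e-06). Gins1, part of the helicase complex, was at 0.671 and 0.0481 CPM against 49.3, 59.0, 64.1, 56.2 and 63.0 CPM (log2 fold change -7.38, SE 0.73, adjusted p = 1.2e-05). Dtl and Exo1, described below, belong to the same phase of the cycle.

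Of 46 mitotic genes tested, 22 (47.8%) were called lower, 1 was called higher and 23 were not called. Promoters of such genes often carry the cell cycle homology region (searched as TTTGAA) and CCAAT boxes (searched as CCAAT), both on either strand. The sequences below are of 2 members called lower and of the 1 member called higher. The 2 were those with the largest fall among members called lower that hold both motifs in the window shown. Genes of 1 chromosome were left out of that choice. Capitals mark TTTGAA and CCAAT or their reverse complements, over the 200 bases before the start site.
Smc2: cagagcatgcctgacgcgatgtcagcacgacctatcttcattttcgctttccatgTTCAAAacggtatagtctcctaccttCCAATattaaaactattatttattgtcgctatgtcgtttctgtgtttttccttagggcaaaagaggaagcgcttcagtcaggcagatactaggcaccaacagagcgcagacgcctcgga
Top2a: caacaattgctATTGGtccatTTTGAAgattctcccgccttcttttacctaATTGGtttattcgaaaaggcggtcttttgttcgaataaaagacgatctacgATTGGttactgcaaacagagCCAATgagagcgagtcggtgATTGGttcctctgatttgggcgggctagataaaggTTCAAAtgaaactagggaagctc
Pttg1: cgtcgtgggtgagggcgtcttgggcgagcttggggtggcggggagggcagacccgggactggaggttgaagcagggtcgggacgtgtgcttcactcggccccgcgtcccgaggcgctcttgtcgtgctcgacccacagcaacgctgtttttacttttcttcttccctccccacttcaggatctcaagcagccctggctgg
They lie at chr4:52439021-52439220 (plus strand), chr11:99024190-99024389 (minus strand) and chr11:43425982-43426181 (minus strand). The Top2a window holds 5 CCAAT boxes and 2 TTTGAA motifs, the Smc2 window 1 of each, and the Pttg1 window neither. The Pttg1 window precedes the RefSeq start but lies inside the gene as the deposited table gives it (chromosome 11, 43420250 to 43426251), so it is not the sequence before that gene's own start.

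Smc2 and Top2a, a condensin subunit and the topoisomerase that untangles chromosomes, were lower in both CD45 RIT libraries. Smc2 was at 117 and 29.9 CPM against 281, 334, 339, 332 and 544 CPM in TBI (log2 fold change -2.32, SE 0.45, adjusted p = 0.00158). Top2a was at 148 and 109.8 CPM against 440.3, 648, 509, 588 and 671 CPM (log2 fold change -2.14, SE 0.24, adjusted p = 2.8e-05). Pttg1, securin, was called higher at 137 and 93.7 CPM against 38.6, 38.4, 45.5, 45.9 and 94.6 CPM, but replicate 2 lay below TBI replicate 6 (adjusted p = 0.0201). That call was lost without CD45 RIT replicate 1 (adjusted p = 0.112) and with the library number term (0.593). The median log2 fold change of the list was -1.66, and 38 of the 46 genes lay below every TBI library in both CD45 RIT libraries. Without CD45 RIT replicate 1 the median was -2.99. Foxm1, a transcription factor of mitotic genes, was at 6.04 and 0.0962 CPM against 61.1, 69.4, 63.7, 63.2 and 98.2 CPM (log2 fold change -4.54, SE 1.04, adjusted p = 0.00464). Aurkb, a mitotic kinase, was at 42.3 CPM in replicate 1 and had 1 count in replicate 2, against 222, 264, 270, 265 and 351 CPM. Spc24, of the kinetochore, was at 35.7 CPM and 1 count against 181, 187, 199, 179 and 248 CPM. The calls of Aurkb (adjusted p = 0.036) and Spc24 (0.0409) were lost when any 1 TBI library was left out (0.0508 to 0.054 and 0.0569 to 0.0605). Mki67, the proliferation antigen, was at 678 CPM in replicate 1, within the TBI range of 465 to 1405 CPM, and at 0.433 CPM in replicate 2. It was not called (adjusted p = 0.476), and its log2 fold change was -10.78 without replicate 1. TTTGAA was in 29 of 40 promoters of the list (72.5%) against 17.9% of all promoters, and CCAAT in 30 of 40 (75.0%) against 37.4%. In the DNA replication list the shares were 17% and 51.1%. Within the mitosis list TTTGAA was in 15 of 18 promoters of members called lower and in 14 of 21 of those not called.

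DNA break repair genes also differed between the CD45 RIT libraries. Of 43 tested, 18 (41.9%) were called lower and none higher, against 19.0% and 19.6% of all genes. The median log2 fold change was -1.96, and -9.46 without CD45 RIT replicate 1. In replicate 1, 35 genes exceeded 3 counts with a median difference from TBI of -0.93 on the log2 scale, while in replicate 2 only 16 did, with a median difference of -1.31. Mre11a, a nuclease that opens broken ends, was at 0 counts in both against 62.4, 53.6, 58.6, 51.9 and 45.2 CPM (at least 297-fold lower). Fancm and Fancf, of the pathway for crosslink repair, were at 0 counts in both and at least 156-fold and 115-fold lower. The erythroid, B lineage and myeloid sums given above differ between the same libraries, and their part in the levels of the cycle and repair genes was not tested.

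**Figure D4:**
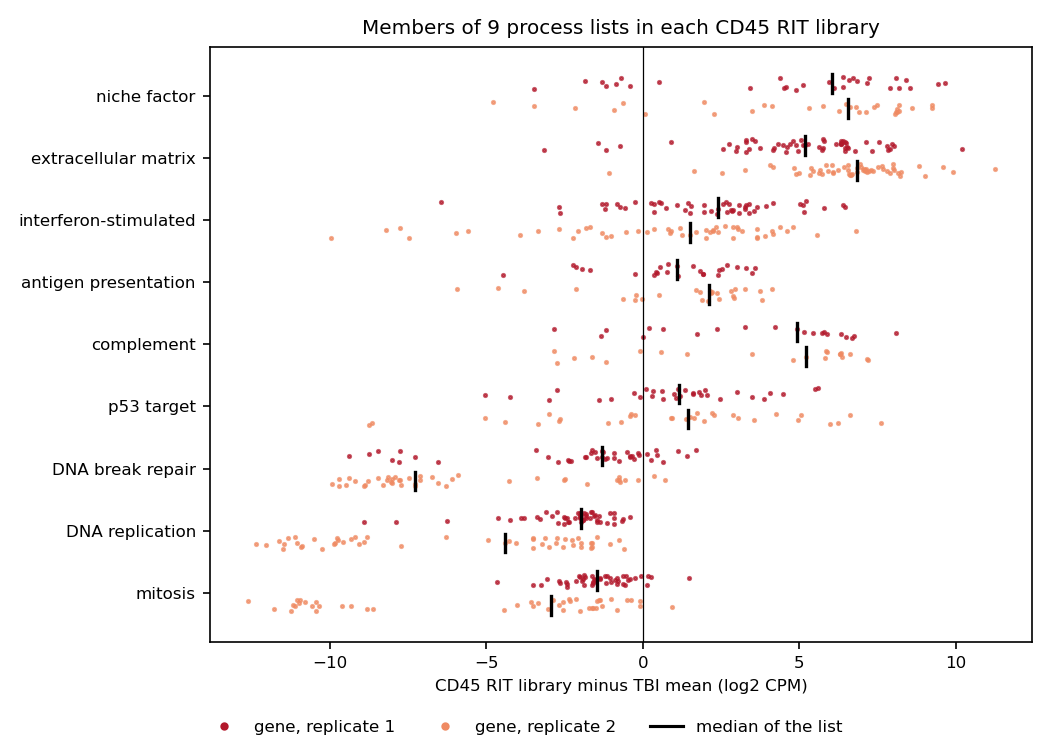
Each point is a gene of 1 of 9 process lists, placed by the difference in log2 CPM between CD45 RIT replicate 1 (dark) or replicate 2 (light) and the mean of the 5 TBI libraries, with black bars at the median of the list in that library. The medians of the niche, matrix and complement lists lie to the right of 0 in both libraries and all DNA replication genes to the left, and in replicate 2 these genes form a higher and a much lower group, with 18 of 51 at no more than 3 counts.

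Genes of the widest gap downward came from several pathways. Pdia2 (chromosome 17, 26195999 to 26199087), a protein disulphide isomerase, was at 0 counts in both CD45 RIT libraries and at 59.0, 71.4, 103, 86.9 and 125 CPM in TBI (at least 486-fold lower, adjusted p = 3.94e-07). Dtl, part of a ubiquitin ligase active in S phase, had 2 and 3 counts against 155, 186, 206, 193 and 185 CPM. Taken against the floor this is 1012-fold lower, but replicate 2 was at the floor itself, so the value is no bound. Exo1, an exonuclease of mismatch repair, had 1 and 1 counts, and Nsl1 and Mis12, which join chromosomes to the kinetochore, had 1 count in replicate 1 and 0 in replicate 2. Cdca7l, a target of MYC, and Tdp1, which removes trapped topoisomerase from DNA, were at 0 in both against 38.0 to 78.3 and 48.2 to 88.1 CPM. Slc39a8, a zinc transporter, was at 0 in both against 59.9, 66.4, 90.8, 55.5 and 53.4 CPM. Pklr, the pyruvate kinase of liver and red cells, was at 0 in both against 65.7, 54.3, 79.8, 56.0 and 37.1 CPM. Wdr46, of ribosome assembly, had 0 and 1 counts. The lowest TBI value among these genes, Mre11a and Prg2 was 37.1 CPM, for Pklr in replicate 6. As given above, 1.81% and 10.1% of genes at 20 CPM or more in TBI were at 0 in CD45 RIT replicates 1 and 2.

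Genes of protein folding stress and antioxidant defence rose in part. Of 27 genes of the unfolded protein response tested, 13 (48.1%) were called higher and 2 (7.41%) lower, against 19.6% and 19.0% of all genes. Without scaling factors 6 were called higher and 5 lower, against 13.9% and 27.5% of all genes. Xbp1, its transcription factor, was at 560.3 and 667 CPM against 79.3, 91.0, 82.7, 77.3 and 82.4 CPM in TBI and 153 to 166 CPM in untreated libraries (log2 fold change 2.89, SE 0.16, adjusted p = 3.94e-07). Dnajb9, a chaperone of the endoplasmic reticulum, was at 14.2 and 112 CPM against 4.02 to 6.24 CPM, and Sel1l, which disposes of misfolded proteins, at 214 and 191 CPM against 34.3 to 65.4 CPM. Hyou1, another chaperone, was called lower at 1.10 and 0.337 CPM against 23.6, 8.75, 9.49, 11.9 and 8.69 CPM (log2 fold change -4.12, SE 0.80, adjusted p = 0.00165). Of 31 antioxidant genes, 13 (41.9%) were called higher and 3 (9.68%) lower, against 19.6% and 19.0% of all genes. Sod3, a secreted superoxide dismutase, was at 139 and 267 CPM against 0.743, 0.692, 0.668, 0.237 and 0.862 CPM (log2 fold change 8.31, SE 0.47, adjusted p = 3.94e-07). Gpx3, a secreted glutathione peroxidase, was at 4000 and 5333 CPM against 44.5, 35.6, 35.0, 38.6 and 221 CPM, and Gpx8 at 562 and 386 CPM against 2.21 to 7.39 CPM. Prdx3, of mitochondria, was lower at 271 and 38.0 CPM against 419, 441, 464, 458 and 652 CPM (log2 fold change -1.65, SE 0.53, adjusted p = 0.0265).

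Immediate early and heat shock genes also respond to handling of cells before lysis. Of 22 tested, 18 (81.8%) were called higher and none lower, against 19.6% and 19.0% of all genes (median log2 fold change 2.81). With the library number term 9 were called higher and 1 lower, against 10.3% and 10.8% of all genes. Hspb1, a small heat shock protein, was at 35.4 and 81.0 CPM against 0.0708, 0.519, 0.0477, 0.474 and 1.65 CPM, and Atf3, a stress-induced transcription factor, at 50.3 and 55.0 CPM against 0.0708, 0, 0.954, 0.441 and 3.09 CPM. Both CD45 RIT libraries were far above TBI for both genes (log2 fold change 6.76, SE 1.10, adjusted p = 0.000506 for Hspb1, and log2 fold change 5.89, SE 1.64, adjusted p = 0.0139 for Atf3). Of 13 mitochondrially encoded genes, 6 (46.2%) were called higher, and none with the library number term. mt-Nd6 was at 191 and 497 CPM against 72.3, 97.0, 148, 87.3 and 147 CPM, and mt-Nd2 at 370 and 621 CPM against 121, 154, 258, 128 and 191 CPM. Neither overlapped with TBI, and the mt-Nd6 call was lost without CD45 RIT replicate 2 (adjusted p = 0.162). The summed immediate early and heat shock list was at 2394 and 3895 CPM in CD45 RIT replicates 1 and 2 against 938 to 1320 CPM in TBI. In untreated libraries it was at 1671 to 3932 CPM, so both CD45 RIT libraries lay within the untreated range and TBI below it. The part of handling or RNA quality in the other results was not tested.

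Genes that differed most between the 2 CD45 RIT libraries are given as a description. Rhd, of the red cell membrane, was at 1145 CPM in replicate 1, within the TBI range of 713 to 3042 CPM, and had 1 count in replicate 2. Klf1, a transcription factor of red cells, was at 462 CPM and 0 counts, against 777, 839.6, 789.9, 827 and 1487 CPM in TBI. In the other direction Dntt, the polymerase that adds bases at antigen receptor joints, had 0 counts in replicate 1 and was at 196 CPM in replicate 2, against 278, 408, 234, 364 and 24.3 CPM in TBI. Mthfd1, of folate metabolism, had 2 counts and 27.8 CPM, against 164 to 596 CPM. Vps50, of endosome recycling, was at 4.76 CPM in replicate 1, below TBI (12.6 to 35.4 CPM), and at 2989 CPM in replicate 2. It was called higher with both libraries, and its log2 fold change was -2.60 without replicate 2. None of Rhd, Klf1 and Dntt was called with both libraries. Without the library in which each was higher, their log2 fold changes were -14.69, -17.54 and -15.68, fitted values that are no bounds near 0 counts. Over all genes, replicate 1 lay above and replicate 2 below all TBI libraries for 1870 genes, and the reverse held for 1052.

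The labels give each library a number but not its meaning. The TBI libraries had numbers 1, 5, 8, 9 and 10, and the CD45 RIT libraries 15 and 16. With a term for numbers of 10 or more, fitted over all 14 libraries, 4525 genes were called, 2208 (10.3%) higher and 2317 (10.8%) lower. Number and treatment can be told apart here only through TBI replicate 6. The genes said above to lie above or below every TBI library also do so against that library. Of the genes described here, Cxcl12, Gas6, Lpl, Kitl, Cdkn1a and Xbp1 were called with the term as well. Of the 138 genes named here that passed the test, 42 did not pass with the term (adjusted p from 0.0511 to 0.593): Atf3, Aurkb, Bcl2, Bcl2l11, Bmp2, C3ar1, C6, Car1, Ccl2, Ccl4, Cd27, Col16a1, Col1a1, Flt4, Gpihbp1, H2-Aa, Hlf, Hspb1, Ifit1, Ifit3, Igf2, Igfbp2, Igfbp3, Isg15, Kdr, Mcm5, Mepe, mt-Nd2, mt-Nd6, Mthfd1, Oas2, Plek, Plk3, Ppbp, Pttg1, Ramp2, Robo4, Spc24, Timd4, Twist2, Vps50 and Xkr8.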

How the data were processed

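cDNA of sorted marrow cells was made with the SMART-Seq v4 kit after extraction with a Qiagen micro kit and turned into Nextera XT libraries, per the labels. The deposited table holds whole-number read counts per gene for 55335 genes and 14 libraries, made by the authors. The submitters' processing notes list STAR 2.7.7a, FastQC 0.11.9, edgeR 3.36.0 and the build hg38. The identifiers are nevertheless of mouse genes, and 54587 of them match GENCODE M21 on GRCm38 with identical coordinates. Strand settings and the sharing of reads between genes are not given in the sources used here, so genes with overlaps or near copies are uncertain.

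Genes were filtered with filterByExpr (minimum count 10, total 15), which left 21509. They were fitted with edgeR 4.0.16 in R 4.3.3 (TMM factors, quasi-likelihood test, group as the only term, all 14 libraries), with Benjamini-Hochberg adjustment over all genes tested. CPM of genes use TMM-scaled library sizes, and sums over lists use total counts. The SE of a log2 fold change was derived from the F statistic. A floor of 3 counts equals 0.102 to 0.215 CPM in TBI and 0.144 to 0.183 CPM in CD45 RIT libraries. It covers only the counting error of a gene seen at 0 counts, and no PCR duplicates. A permutation test of 2 against 5 libraries cannot go below 0.0952 (exact, 2-sided, 21 regroupings), so single values were not tested in that way. The procedure was tested on simulated counts. RLE factors, no scaling, other filters, DESeq2 1.42.0, fewer libraries, a replicate block and a library number term were tried as alternatives.

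The members and lists were chosen with earlier results of these data known, so lists are described by counts and medians only. Genes were named by rule: 12 called protein-coding genes with the widest gap in each direction (mean log2 CPM of at least 3), up to 4 of the most changed called members per list, Cdh5, Pecam1, Ptprc, Cdkn1a, Mdm2 and Trp53, and genes that differed most between the CD45 RIT libraries (mean log2 CPM of at least 5). Some genes of the rule were left out of the text, and some are not reported here. Adgre1, Adipoq, B2m, Ccng1, Col1a1, Csf1, Cldn5, Flt1, Hbb-bs, Il7, Isg15, Kitl, Lepr, Mcm5, Mfge8, Mki67, Smc2, Sox7, Sox17, Top2a and Vcam1 were chosen after their values were seen.

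Promoter sequences are from RefSeq on GRCm38.p6.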

Additional observations from a re-analysis of the deposited data

Results flagged for a closer look

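For 30 of the 146 genes examined and 7 of 31 lists, 1 of the 5 TBI libraries lay apart from the other 4 by more than Dixon's critical value of 0.71. The chance rate of about 1 in 20 holds for independent, normally distributed values. It does not hold for low counts, where any count in 1 library against 0 in the other 4 passes, as for Cxcl1, Igfbp2 and Gpihbp1. The numbers of genes and lists are therefore not set against that rate. TBI replicate 6 was that library for 23 genes, highest for 21 and lowest for 2, and for all 7 lists.

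Red cell and cycle genes were among those highest in TBI replicate 6. It held Hbb-bs at 78720 CPM, Klf1 at 1487 CPM, Rhd at 3042 CPM and Tal1 at 192 CPM, and the summed erythroid list was at 208700 CPM. Of the mitotic genes, Foxm1 was at 98.2 CPM, Mki67 at 1405 CPM, Pttg1 at 94.6 CPM, Smc2 at 543.5 CPM and Spc24 at 248 CPM. Prdx3 was at 652 CPM, and the antioxidant list summed to 32450 CPM.

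The same library was also the highest of TBI for further single genes, some of them of stroma and secreted signals. Its levels were 1.58 CPM for Bmp2, 1.15 CPM for Ccl2, 115 CPM for Cdkn1a, 0.431 CPM for Cfb, 30.0 CPM for Cxcl14 and 221 CPM for Gpx3. Igfbp3 was at 12.1 CPM, Lepr at 42.4 CPM, Mepe at 8.83 CPM, Ppbp at 14 CPM and Spp1 at 598 CPM. The lists of osteolineage and complement genes summed to 776 and 471 CPM. The summed stromal and extracellular matrix lists were not high in it, at 1209 and 1486 CPM. Their TBI ranges were 1110 to 2577 and 1486 to 3053 CPM. TBI replicate 6 was the lowest of TBI for Bcl2 (0.646 CPM), C3ar1 (0.0718 CPM) and the lists of endothelial identity (78.5 CPM), TGF-beta and BMP signalling (137 CPM) and the unfolded protein response (3745 CPM).

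Other TBI libraries stood apart for 7 genes. TBI replicate 1 was at 0.0354 CPM for Cxcl1 and for Igfbp2, 1.49 CPM for Efemp1, 23.6 CPM for Hyou1 and 93.5 CPM for Prim2. TBI replicate 5 was at 0.0339 CPM for Gpihbp1, and TBI replicate 4 at 0 CPM for Hlf.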

How the results depend on the processing

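The replicate block, which CD45 RIT and TBI share only through number 1, gave 3756 called genes (1722 higher, 2034 lower). Same-numbered libraries did not deviate together (correlations of -0.09 to 0.139), so the numbers are not read as pairs. The block ended the calls of 42 of 138 genes named and added Hbb-bs (higher, adjusted p = 0.0128) and Trp53 (lower, 0.0278). Trp53 was also called lower without scaling (0.0132) or without a filter (0.0379). The library number term gave 4525 (2208 and 2317), and the 7 libraries alone 5923, where 10 of 133 named calls were lost (Aurkb, Bcl2, Car1, Mcm5, Mthfd1, Ppbp, Prdx3, Pttg1, Spc24 and Tal1). Leaving out 1 library gave 6981 to 12029 called genes, 3585 to 4760 higher and 3396 to 7269 lower. Bcl2 and Pttg1 were not called without scaling or without a filter, and Mcm5 not without a filter. RLE factors and DESeq2 ended no named call, DESeq2 giving an adjusted p for 130 of the 138 genes and calling Adgre1 in addition (0.0286).

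Log2 fold changes changed sign for 4 genes with the library number term (Dntt 2.01, Hbb-bs -0.15, Ptprc 1.65, Trp53 0.10). Over the fits that leave out 1 library the values ran from -8.98 to 0.02 for Ptprc, -0.02 to 2.89 for Hbb-bs, -0.28 to 3.67 for Bcl2, -3.84 to 9.79 for Flt4, -2.13 to 6.31 for Hlf, -3.51 to 7.38 for Kdr, -2.86 to 7.66 for Robo4, -2.86 to 10.25 for Timd4, -2.60 to 6.80 for Vps50 and -2.05 to 8.95 for Twist2. The median of the megakaryocyte and platelet list (-0.04) was 0.02 with RLE factors and with DESeq2, 0.24 with a minimum count of 50, 0.52 with the 7 libraries, 0.27 with the block, 0.08 with the library number term and -6.66 to 0.84 with 1 library left out. That of the arrest and senescence list (0.08) was -0.45 without scaling, -0.12 without a filter, -0.06 with a minimum count of 50, -0.12 with the library number term and -0.13 to 0.37 with 1 library left out. The BCL2 family median (1.28) ran from -0.55 to 1.26, and the antioxidant median (0.52) was -0.03 without scaling. The cause was not tested, other than fewer libraries where some were left out.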
